A study of Mus musculus with 9 samples.

Results

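The genes described here are *Cxadr*, *Jam2*, *Ncam2*, *Dscam*, *Eva1c*, *Tiam1* and *Chodl*, which code for cell-surface adhesion and guidance proteins and for an activator of the GTPase Rac. They were chosen by name as 7 of the 250 genes that the count table lists within the duplicated region of mouse chromosome 16 (Mmu16), out of 43629 genes in the whole table. RNAseq was carried out on mouse embryonic fibroblasts (MEFs), the cells that grow out when an embryo is minced and plated. The 4 WT and 5 Dp1Tyb cultures each came from a single E14.5 littermate embryo whose strain label joins C57BL/6J and 129P2. The study describes its mice as backcrossed onto a C57BL/6J background. The embryos had been decapitated and eviscerated before culture. Dp1Tyb is the genotype Dp(16Lipi-Zbtb21)1TybEmcf, an extra copy of the Mmu16 segment from *Lipi* to *Zbtb21* in every cell, which WT embryos lack. In the GENCODE M21 annotation of GRCm38 this segment runs from 75540514 to 97962622. The study asked how the extra copy changes gene expression in fibroblasts, and for these genes the question is which are expressed in fibroblasts at all and whether those follow the copy number.

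Proteins of these families hold cells together and let growing cells read their surroundings. *Cxadr*, the coxsackievirus and adenovirus receptor, and *Jam2*, junctional adhesion molecule B, belong to one branch of the immunoglobulin superfamily and sit at junctions between epithelial or endothelial cells. *Ncam2* and *Dscam* are larger immunoglobulin-type adhesion molecules best known from neurons, where *Dscam* takes part in self-avoidance and in netrin-guided growth. *Eva1c* is the mammalian relative of a worm receptor for the guidance cue Slit, *Chodl* (chondrolectin) is a transmembrane protein with a C-type lectin domain, and *Tiam1* is a guanine nucleotide exchange factor that loads Rac with GTP at sites where the cytoskeleton is remodelled.

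WT libraries held 25571442 to 30009361 counts and Dp1Tyb libraries 24804539 to 26782380. The cultures carry a MEF1 label (WT replicate 1 and Dp1Tyb replicate 1) or a MEF2 label (the other 7), and the labels do not say what the number stands for. All 10 fibroblast markers were expressed, from *Pdgfra* at 33.8 RPKM to *Col1a1* at 2100 RPKM (the counts-per-million value, CPM, divided by the exon length in kb). Dp1Tyb replicate 2 stood apart from the other cultures. It had the highest value on the first principal component of all tested genes (0.73, against 0.33 for the next culture, WT replicate 2), and this component held 48.9% of the variance. In the skeletal muscle marker list its summed level was 256 CPM, here scaled with TMM factors as in all CPM values below, against 12.4 to 74.4 CPM in the other 8 cultures. Fold changes of the genes that this culture moved most are also given without it. In these bulk samples, fewer cells of a type and less RNA per cell cannot be told apart.

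Of the 7 genes, 6 were expressed in the fibroblast cultures. Which cells of the cultures expressed them was not tested. The threshold was a mean of 0.0994 RPKM, set 3 SD below the peak of the log2 RPKM distribution, and 96 genes of the duplicated region lay above it. With a threshold 2 SD below the peak the number was 5 of 7, and at 1 RPKM it was 4. Per exon length, mean levels over the 9 cultures were 3.90 RPKM for *Chodl*, 3.16 for *Tiam1*, 3.02 for *Jam2*, 2.80 for *Cxadr*, 0.702 for *Eva1c* and 0.200 for *Ncam2*. These are modest levels, since the highest of them, that of *Chodl*, lay at the 51.2nd percentile of expressed genes. *Dscam* was at 0.00863 RPKM, below the threshold. The order among the first 4 genes was not fixed. *Chodl* was above *Tiam1* in 6 of 9 cultures, *Tiam1* above *Jam2* in 6 and *Jam2* above *Cxadr* in 4, and the ranges of these neighbours overlapped. *Cxadr* was above *Eva1c* in all 9 cultures, *Eva1c* above *Ncam2* in 8 and *Ncam2* above *Dscam* in 9. The range of *Ncam2*, from 0.0660 to 0.503 RPKM, did not overlap with that of *Dscam*, from 0 to 0.0255 RPKM.

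**Figure D1:**
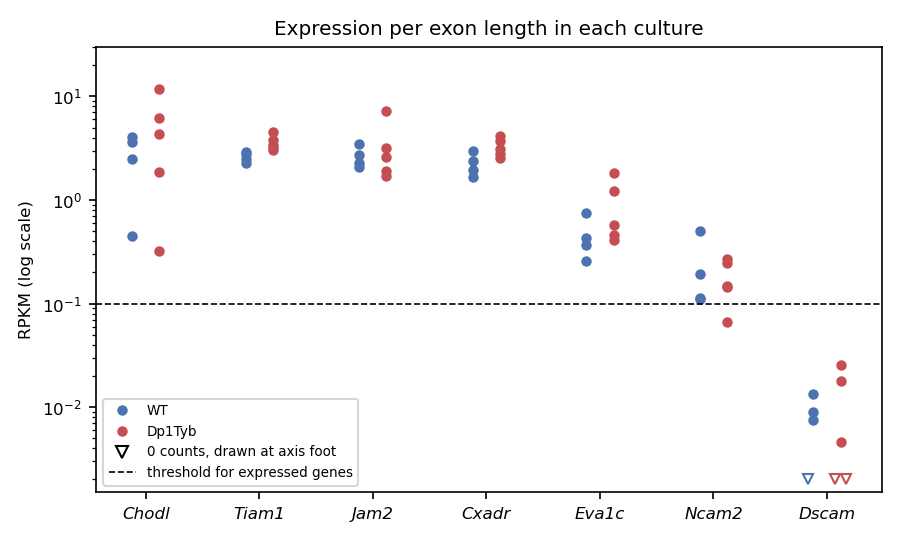
RPKM of each of the 7 genes in every culture on a log axis, WT in blue and Dp1Tyb in red, with open triangles at the axis foot for cultures with 0 counts and a dashed line at the threshold for expressed genes (0.0994 RPKM). *Tiam1*, *Jam2* and *Cxadr* overlap, *Chodl* spreads from 0.323 to 11.8 RPKM across and beyond them, the means of *Eva1c* and *Ncam2* lie lower, and all cultures are below the line for *Dscam*.

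The stretches of 250 bases before the transcription start, taken from RefSeq on GRCm38.p6, are shown for 3 genes at opposite ends of this order: *Chodl*, with the highest mean level and the largest spread, and the neural genes *Ncam2* and *Dscam*, near and below the threshold. RefSeq gave starts for 5 of the 7 genes, and those of *Tiam1* and *Eva1c* lie inside the gene as GENCODE draws it and are not shown. The last 17 bases of the *Dscam* window also overlap the gene there. Capitals mark CG dinucleotides, the positions at which mammalian DNA is mostly methylated, and each sequence reads 5′ to 3′ on the strand of the gene.
*Chodl* (chr16:78930698-78930947, plus strand): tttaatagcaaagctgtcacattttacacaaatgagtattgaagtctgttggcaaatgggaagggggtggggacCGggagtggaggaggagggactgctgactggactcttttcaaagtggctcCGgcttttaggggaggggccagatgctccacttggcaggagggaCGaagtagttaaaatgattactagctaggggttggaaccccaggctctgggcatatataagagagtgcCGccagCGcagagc
*Ncam2* (chr16:81200447-81200696, plus strand): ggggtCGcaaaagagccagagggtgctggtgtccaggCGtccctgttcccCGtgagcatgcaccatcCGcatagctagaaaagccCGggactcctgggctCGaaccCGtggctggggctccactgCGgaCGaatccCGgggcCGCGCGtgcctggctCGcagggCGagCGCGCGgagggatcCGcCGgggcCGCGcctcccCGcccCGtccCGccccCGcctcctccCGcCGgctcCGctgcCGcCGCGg
*Dscam* (chr16:97170736-97170985, minus strand): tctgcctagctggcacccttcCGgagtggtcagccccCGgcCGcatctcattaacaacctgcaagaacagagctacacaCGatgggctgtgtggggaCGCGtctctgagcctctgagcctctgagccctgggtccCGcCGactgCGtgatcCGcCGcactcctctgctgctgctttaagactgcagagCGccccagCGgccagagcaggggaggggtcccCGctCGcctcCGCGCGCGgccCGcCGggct
The windows held 5 CG for *Chodl*, 32 for *Ncam2* and 21 for *Dscam*, against a median of 6 over 32851 such windows in the genome. As many CG or fewer were found in 49.6% of all windows for *Chodl*, 96.0% for *Ncam2* and 85.2% for *Dscam*, so that both neural genes had more CG than *Chodl*. A set of 3 short motifs was searched on both strands: TATAAA, present in 12.4% of all windows, GGGCGG, in 32.7%, and CCAAT, in 33.8%. The *Ncam2* window held GGGCGG, and the other windows printed here held none of these letters.

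In the edgeR quasi-likelihood test over 14567 genes, none of the 6 expressed genes passed an adjusted p below 0.05, and 2 of them, *Tiam1* and *Cxadr*, had an unadjusted p below 0.05. DESeq2 called none of these 6 either, and gave no adjusted p for *Dscam*. Of all genes tested, 0.165% were called higher and 0% lower in Dp1Tyb by edgeR (24 and 0 genes, against 48 and 20 by DESeq2), and 3.13% had an unadjusted p below 0.05 in either direction. Of the 89 tested genes of the duplicated region, 24.7% were called higher and 67.4% were higher with an unadjusted p below 0.05. The log2 fold change was above 0 for 5 of the 6 genes, against 93.3% of the tested genes of the region and 51% of all genes tested. Its median was 0.55 over the 6 genes, 0.59 over the region and 0.003 over all genes tested. A fold change of 1.5, the ratio of copy numbers, lay within the 95% interval of all 6 genes, and no change lay within the interval of 4 of them. The standard errors of these 4 genes ran from 0.41 to 0.85 on the log2 scale, against 0.13 for *Tiam1*, 0.19 for *Cxadr* and a median of 0.15 in the region.

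**Figure D2:**
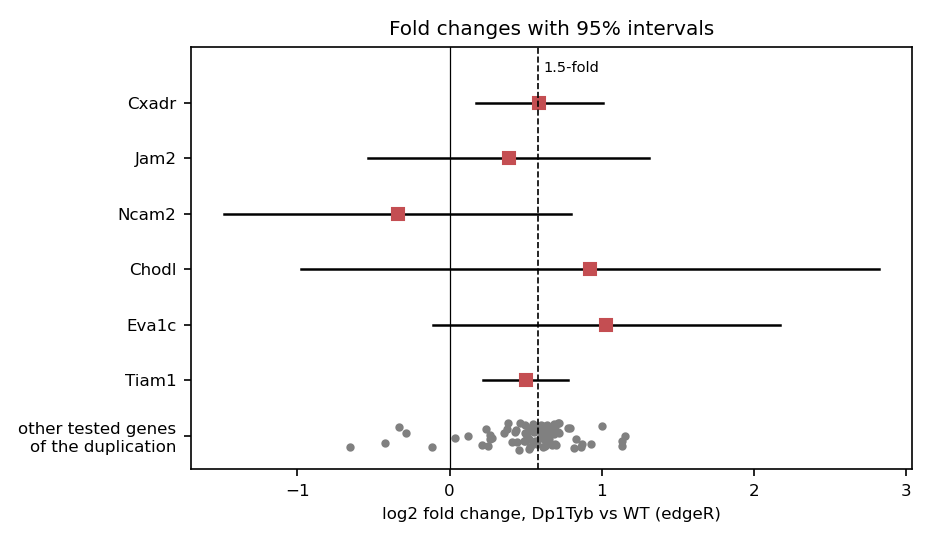
Log2 fold change of Dp1Tyb vs WT MEFs from edgeR for the 6 expressed genes (red squares) with 95% intervals (black lines), above the other 83 tested genes of the duplicated region (grey points, spread vertically for visibility only). The dashed line marks a fold change of 1.5, which every interval crosses, and the intervals of *Tiam1* and *Cxadr* are the narrowest.

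*Cxadr* (ENSMUSG00000022865) lies on the plus strand of Mmu16 from 78301489 to 78359774. In WT cultures it had 20.6, 12.4, 14.1 and 17.6 CPM in replicates 1 to 4, and in Dp1Tyb cultures 18.4, 21.5, 27.4, 23.9 and 30.9 CPM in replicates 1 to 5. Of the 5 Dp1Tyb cultures, 4 were above every WT culture, and Dp1Tyb replicate 1 was below WT replicate 1 alone. Both cultures in this overlap carry the MEF1 label. The mean was 16.2 ± 3.68 CPM (SD, n = 4) in WT and 24.4 ± 4.90 CPM (SD, n = 5) in Dp1Tyb (two-sided exact permutation p = 0.0317). By edgeR's quasi-likelihood test the log2 fold change was 0.59 ± 0.19 (standard error), with an unadjusted p of 0.0103 and a Benjamini-Hochberg adjusted p of 1. In linear terms this is 1.51-fold with a 95% interval from 1.13 to 2.01. Within the MEF2 cultures the difference in mean log2 CPM was 0.78 (two-sided exact permutation p = 0.0571, the lowest that 3 against 4 can reach), while between the 2 MEF1 cultures it was -0.15. The exact permutation p was above 0.05 with each of WT replicates 2 to 4 and each of Dp1Tyb replicates 2 to 5 left out, at 0.0571 or 0.0714. *Btg3*, a gene of the duplicated region on the opposite strand, shares exonic sequence with *Cxadr*. The library kit keeps the strand of each transcript, but the strand option of the counting is not given in the sources used here, so reads in the shared part may be assigned to either gene or to none. The 8 epithelial markers, set beside *Cxadr* as a gene of epithelial junctions, summed to 9.44 to 20.5 CPM in WT and 8.67 to 15.1 CPM in Dp1Tyb cultures. Among them, *Epcam* and *Cdh1* had at most 5 and 9 counts in any culture. *Krt8*, *Krt18* and *Krt14* together made up most of each sum. For *Btg3*, edgeR gave 0.78 ± 0.22 (log2 fold change and standard error) and an adjusted p of 0.749.

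**Figure D3:**
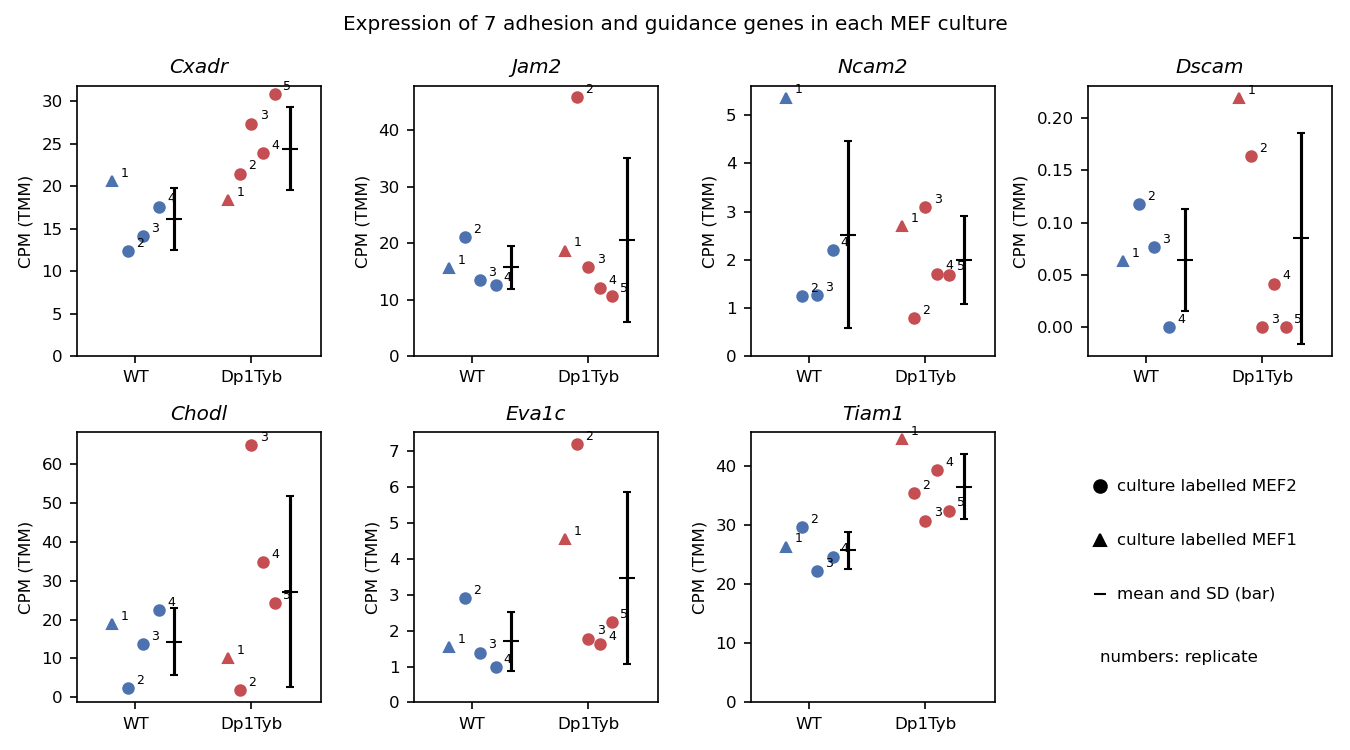
TMM-scaled CPM of each gene in the 4 WT (blue) and 5 Dp1Tyb (red) cultures, numbered by replicate, with circles for MEF2 and triangles for MEF1 labels and a black bar for mean and SD. *Tiam1* shows no overlap between genotypes, *Cxadr* overlaps in one pair of cultures, and the larger SD within a genotype exceeds the difference of the means for *Jam2*, *Ncam2*, *Dscam*, *Eva1c* and *Chodl*.

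*Jam2* (ENSMUSG00000053062), on the plus strand from 84774123 to 84825928, was above every WT culture in only 1 Dp1Tyb culture. It had 15.6, 21.1, 13.5 and 12.6 CPM in WT replicates 1 to 4. In Dp1Tyb replicates 1 to 5 it had 18.7, 45.9, 15.7, 12 and 10.6 CPM. The value of Dp1Tyb replicate 2 was far above all others, and the other 4 Dp1Tyb cultures lay between 10.6 and 18.7 CPM, within or below the WT range. Over all cultures, edgeR put the log2 fold change at 0.39 ± 0.41 (standard error) with an adjusted p of 1 and a 95% interval from 0.688-fold to 2.49-fold. Without Dp1Tyb replicate 2 it was -0.14. The median of the region without that culture was 0.57. *Jam2* ranked 72nd of 89 genes of the region by fold change with all cultures. As a junction protein of endothelium it was set beside 8 endothelial markers, whose summed level spanned 17.2 to 35.3 CPM in WT and 17.1 to 35.1 CPM in Dp1Tyb cultures. Their sum in Dp1Tyb replicate 2 was 26.9 CPM, inside both ranges. The markers were uneven in that culture. *Kdr*, at 15.3 CPM, and *Emcn*, at 2.70 CPM, were at their highest of all 9 cultures there, and *Erg*, itself a gene of the duplicated region, was at its lowest, 3.56 CPM. The defining markers *Pecam1* and *Cdh5* had at most 15 and 26 counts in any culture. None of the 5 tested markers was called, and 1, *Emcn*, had an unadjusted p below 0.05 (log2 fold change 1.77 ± 0.58, standard error). The part of endothelial cells in the *Jam2* values was not tested.

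*Ncam2* (ENSMUSG00000022762) spans 426.1 kb on the plus strand from 81200697 to 81626828. It was near the lower limit of expression, with 5.37, 1.25, 1.27 and 2.20 CPM in WT replicates 1 to 4 and 2.70, 0.778, 3.10, 1.71 and 1.69 CPM in Dp1Tyb replicates 1 to 5. WT replicate 1 had the highest value, 171 counts, and Dp1Tyb replicate 2 the lowest, 19 counts. The genotypes overlapped, with no Dp1Tyb culture above every WT culture. *Ncam2* was the one gene of the 6 with a log2 fold change below 0. edgeR put it at -0.34 ± 0.51 (standard error) with an adjusted p of 1, and it ranked 87th of 89 in the region. Its interval, from 0.358-fold to 1.74-fold, includes a fold change of 1.5. The sign rested on WT replicate 1, without which the log2 fold change was 0.35, and without Dp1Tyb replicate 2 it was -0.14. Within the MEF2 cultures the edgeR value was 0.21. The 8 neuronal markers summed to 27.0 to 73.8 CPM in WT and 41.9 to 106 CPM in Dp1Tyb cultures, or 41.9 to 67.9 CPM without Dp1Tyb replicate 2. *Elavl3* and *Rbfox3* were at or below 3 counts in each. Most of the sum came from *Tubb3* and *Stmn2*, at 69.5 and 34.7 CPM in Dp1Tyb replicate 2. The sum was lowest in WT replicate 1, at 27.0 CPM, where *Syt1* and *Dcx* were at their highest, 59 and 29 counts. The sum of 7 markers of Schwann cells and neural crest glia spanned 38.8 to 81.1 CPM in WT and 13.0 to 38.0 CPM in Dp1Tyb, with WT replicate 1 the highest, and 5 of the 6 tested markers had an unadjusted p below 0.05 in the lower direction, against 3.13% of all genes tested in either direction, with 0 called. The sixth, *S100b*, was at a log2 fold change of 0.15 and was highest in Dp1Tyb replicate 2, at 4.54 CPM. The part of these cells in the *Ncam2* values was not tested.

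*Dscam* (ENSMUSG00000050272) is the longest of the 7 genes, 579.9 kb on the minus strand from 96590840 to 97170752. Over all 9 cultures it had 18 counts. The counts were 2, 3, 2 and 0 in WT replicates 1 to 4 and 6, 4, 0, 1 and 0 in Dp1Tyb replicates 1 to 5. Thus 2 Dp1Tyb cultures were above a floor of 3 counts per culture, and the other 7 cultures were at or below it. It was left out by the filter on low counts, and no fold change is given, since both genotype means are at or near the floor. A difference between the genotypes was not detectable at this depth (two-sided exact permutation p = 0.762). The other adhesion genes of the duplicated region were at or below the floor as well. *Cldn8*, *Cldn14* and *Cldn17*, which code for claudins of tight junctions, had 0 counts in each culture, while the immunoglobulin-type gene *Igsf5* had 4 counts and the integrin gene *Itgb2l* 3 counts over all 9 cultures. A count of 0 in a culture allows up to 3 counts, a limit that covers counting error alone, as the reads carry no molecular identifiers and PCR copies cannot be told from separate molecules.

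*Chodl* (ENSMUSG00000022860), on the plus strand from 78930948 to 78951733, differed most between cultures of the same genotype. In WT replicates 1 to 4 it had 18.8, 2.47, 13.6 and 22.4 CPM, and in Dp1Tyb replicates 1 to 5 it had 10.1, 1.84, 65.0, 34.7 and 24.2 CPM. The highest culture was 35.3-fold above the lowest, and both lie in the Dp1Tyb group. Within WT the ratio was 9.05. Dp1Tyb replicates 3 to 5 were above every WT culture, while Dp1Tyb replicate 2 was below all of them. edgeR gave 0.92 ± 0.85 as its log2 fold change and standard error, with an adjusted p of 1 and a 95% interval from 0.508-fold to 7.09-fold. Without Dp1Tyb replicate 2 the log2 fold change was 1.22, without Dp1Tyb replicate 3 it was 0.31 and without WT replicate 2 it was 0.57. Within-genotype SDs on the log2 scale were 1.76 for *Chodl*, 0.84 for *Ncam2*, 0.80 for *Eva1c*, 0.67 for *Jam2*, 0.31 for *Cxadr* and 0.20 for *Tiam1*, against a median of 0.23 over the tested genes of the region. The SD of *Chodl* was the largest of the 89 genes, and it was above that of 99.7% of the 4498 tested genes within 2-fold of its mean CPM. The SD of *Jam2* was above that of 95.5% of genes at its level, and that of *Tiam1* above 65.4%.

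*Eva1c* (ENSMUSG00000039903), on the plus strand from 90826719 to 90905109, was expressed at a low level. It had 1.54, 2.90, 1.39 and 0.985 CPM in WT replicates 1 to 4 and 4.56, 7.21, 1.78, 1.62 and 2.23 CPM in Dp1Tyb replicates 1 to 5. Dp1Tyb replicates 1 and 2 were above every WT culture, and the other 3 Dp1Tyb cultures were above 3 of the 4 WT cultures. WT replicate 2 was the exception. By edgeR its log2 fold change was 1.03 ± 0.51 (standard error), with an unadjusted p of 0.0715 and an adjusted p of 1. This was the fourth highest of the 89 genes of the region and equals 2.04-fold with a 95% interval from 0.927 to 4.50. The difference in mean log2 CPM had an exact permutation p of 0.19, two-sided. Without WT replicate 2 that p was 0.0357, the lowest that 3 cultures against 5 can reach. With any other culture left out it was between 0.143 and 0.393. Without Dp1Tyb replicate 2 the log2 fold change was 0.59. Total counts per culture for this gene were between 26 and 176, so its relative counting error is larger than for *Cxadr* or *Tiam1*.

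*Tiam1* (ENSMUSG00000002489) lies on the minus strand from 89787111 to 90143769, is 356.7 kb long and was the most evenly expressed of the 6 genes. In WT cultures its level was 26.4, 29.7, 22.3 and 24.7 CPM in replicates 1 to 4. In Dp1Tyb cultures it was 44.6, 35.5, 30.8, 39.3 and 32.5 CPM in replicates 1 to 5. *Tiam1* was the one gene of the 6 in which all 5 Dp1Tyb values exceeded all 4 WT values, a pattern shown by 0.686% of all genes tested and by 51.7% of those of the duplicated region. Its mean was 25.8 ± 3.08 CPM (SD, n = 4) in WT and 36.6 ± 5.54 CPM (SD, n = 5) in Dp1Tyb (two-sided exact permutation p = 0.0159, the lowest that 4 cultures against 5 can reach). edgeR put the log2 fold change at 0.50 ± 0.13 (standard error), with an unadjusted p of 0.00257 and an adjusted p of 0.547. This equals 1.42-fold with a 95% interval from 1.17 to 1.72. *Tiam1* ranked 61st of 89 in the region, and the region median of 1.5-fold lay within its interval. The adjusted p over all genes did not pass, and the single-value test was one of 7, one for each gene. With DESeq2 the adjusted p was 0.0701, the lowest of 17 alternative fits, and the highest was 1. Within the MEF2 cultures the difference in mean log2 CPM was 0.42 (two-sided exact permutation p = 0.0571). Between the 2 MEF1 cultures it was 0.73.

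The uneven genes shared part of their variation. In deviations from the mean of their genotype on the log2 scale, *Eva1c* and *Chodl* ran in opposite directions across the 9 cultures (Pearson r = -0.952, exact permutation p = 1.18e-04, adjusted p = 0.00178 over 15 pairs of genes, and Spearman rho = -0.933, exact permutation p = 7.5e-04, adjusted p = 0.0112). Without the 2 cultures farthest from the median of *Eva1c*, r was -0.867. *Jam2* and *Eva1c* deviated in the same direction by Pearson r (0.875, exact permutation p = 8.6e-04, adjusted p = 0.00645), but the adjusted p of Spearman rho (0.833, exact permutation p = 0.00827) was 0.062, and r was 0.641 without the 2 farthest cultures. For *Jam2* and *Chodl* r was -0.85 (exact permutation p = 0.00412, adjusted p = 0.0206), Spearman rho was -0.667 (exact permutation p = 0.0589, adjusted p = 0.221), and r was -0.299 without the 2 farthest cultures, so that this relation rests on those cultures. The other 12 pairs had an adjusted p above 0.05 by both measures. Strong correlations were not particular to pairs of these genes. Of the 14567 genes tested, 475 ran opposite to *Chodl* with an r beyond 0.9 in size, and 554 ran with it at r above 0.9. For *Eva1c* these numbers were 276 and 192, and for *Jam2* 255 and 182. The first principal component of all tested genes held 48.9% of the variance. All genes of a culture share one library, and centring on the genotype means ties the 9 deviations together, which the permutation over cultures does not account for.

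Markers of other cell types also varied between cultures. Dp1Tyb replicate 2 and WT replicate 2, the lowest cultures for *Chodl*, had the highest sums of the 7 skeletal muscle markers, 256 and 74.4 CPM. Most of these sums came from *Acta1*, skeletal muscle actin, at 223 and 59.5 CPM, while the muscle regulators *Myod1* and *Myog* were at or below 3 counts in all 9 cultures. *Des* did not have this order and was highest in Dp1Tyb replicates 5 and 3, at 38.1 and 36.3 CPM. *Des* (log2 fold change 1.35 ± 0.34, standard error) and *Myh3* had an unadjusted p below 0.05 in the higher direction, and 0 of the 4 tested muscle markers were called. *Myh3* counts were at most 2 in WT and ran from 4 to 30 in Dp1Tyb cultures. The summed macrophage markers had another order. They were lowest in Dp1Tyb replicates 1 and 2, at 8.03 and 8.15 CPM, of which replicate 1 had a muscle sum of 24.9 CPM. They were next lowest in WT replicate 2, at 22.3 CPM, and highest in Dp1Tyb replicate 3, at 120 CPM, the culture with the most *Chodl*. All 7 macrophage markers were detected. The summed fibroblast markers were lowest in the same pair of cultures, 41200 CPM in Dp1Tyb replicate 2 and 47000 CPM in WT replicate 2. In the other 7 they summed to 51100 to 68300 CPM. *Col1a1*, *Col1a2*, *Col3a1*, *Pdgfra*, *Pdgfrb* and *Dcn* were each lowest in this pair. In contrast, *Vim* was highest there, at 4920 and 4800 CPM, and *Thy1* was lowest in WT replicate 1, at 454 CPM. The part of other cell types in the levels of *Jam2*, *Eva1c* and *Chodl* was not tested.

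**Figure D4:**
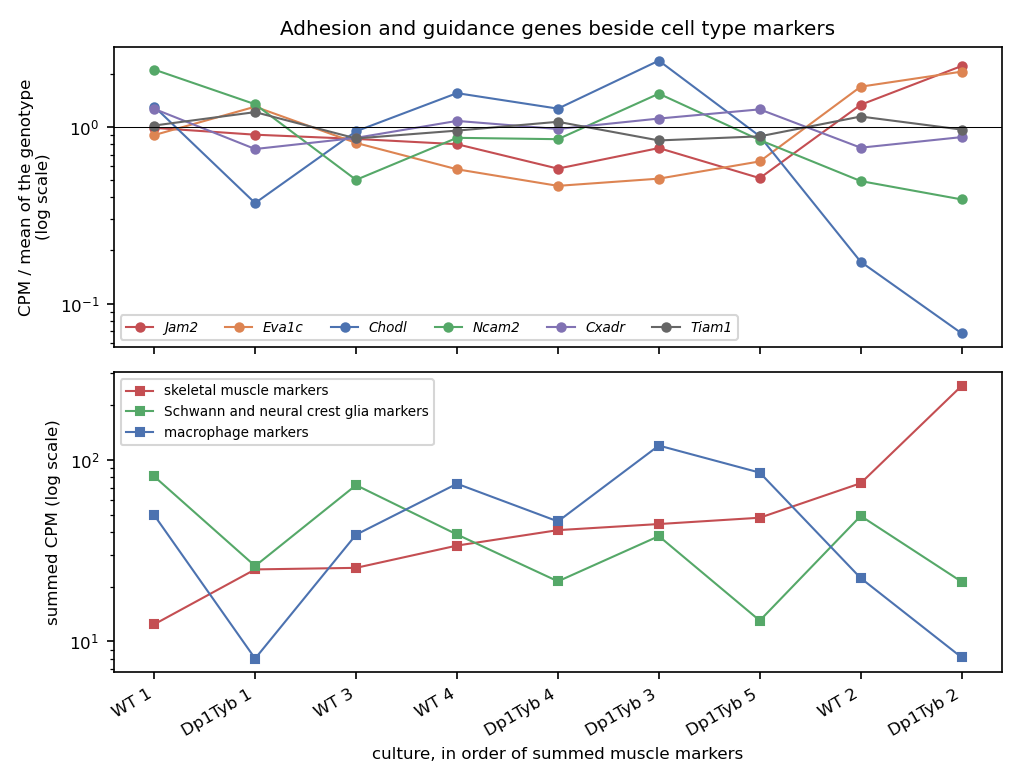
The 9 cultures in order of their summed skeletal muscle markers. The upper panel gives the CPM of each expressed gene divided by the mean of its genotype, and the lower panel the summed CPM of 3 marker lists, both on log axes, with lines joining cultures for reading only. At the right end, in WT replicate 2 and Dp1Tyb replicate 2, *Jam2* and *Eva1c* are high and *Chodl* is low. Near the left end, at a muscle sum of 24.9 CPM, Dp1Tyb replicate 1 also has *Eva1c* above its genotype mean (4.56 against 3.48 CPM). Its *Chodl* is below that mean (10.1 against 27.2 CPM), and so is its *Jam2* (18.7 against 20.5 CPM).

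By the same deviations, the genes most like each expressed gene over the 9 cultures were named, 2 for each, as a description of pattern. They were *Etfbkmt* (r = 0.963) and *Plscr2* (0.957) for *Cxadr*, *Kti12* (0.989) and *Nebl* (0.984) for *Jam2*, *Gas2* (0.987) and *Tub* (0.982) for *Ncam2*, and *Slc4a8* (0.982) and *Dock5* (0.980) for *Eva1c*. For *Tiam1* they were *Ptprq* (0.966) and *Chd4* (0.956), and for *Chodl* *H2-M3* (0.989) and *Clca3a1* (0.987). Each was the highest or next highest over all tested genes, so no p is given. None lies on Mmu16, and r was between 0.877 and 0.971 without the 2 cultures farthest from the median. The number of genes with r above 0.9 was 554 for *Chodl*, 425 for *Ncam2*, 192 for *Eva1c* and 182 for *Jam2*, against 34 for *Cxadr* and 13 for *Tiam1*. The order of these numbers follows the order of spread between cultures, with *Chodl* and *Ncam2* at the top and *Tiam1* at the bottom.

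Genes for relatives and partners of these proteins elsewhere in the genome showed no call in Dp1Tyb MEFs. In 6 lists of related genes, 93 of 104 genes were tested, 0 passed the edgeR test in either direction, and DESeq2 called 0 as well. An unadjusted p below 0.05 was found for 4 of the 93, against 3.13% of all genes tested. The median log2 fold change over the 93 genes was -0.003, against 0.003 over all genes tested. Among junction genes related to *Cxadr* and *Jam2*, 11 of 15 were tested, with a median of 0.05 and 0 with an unadjusted p below 0.05. *Jam3*, which codes for the binding partner of JAM-B, was at 15.4 RPKM with 50.2 ± 0.718 CPM (SD, n = 4) in WT and 48.4 ± 0.590 CPM (SD, n = 5) in Dp1Tyb, and *Tjp1*, the scaffold ZO-1, was at a log2 fold change of 0.13 ± 0.17 (standard error). Of 18 neural immunoglobulin-type adhesion genes, 13 were tested. Their median was -0.32, and 2 were lower with an unadjusted p below 0.05. The most abundant of these were *Ncam1*, at 25.3 RPKM against 0.200 RPKM for *Ncam2*, and *Mcam*, at 24.9 RPKM. Their log2 fold changes, 0.07 and 0.17, were not typical of the list, which ran from -1.09 to 0.17. Only 3 of the 13 genes, these included, were above 0, against 51% of all genes tested.

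Of 23 genes for Slits, netrins, their receptors and partners, 19 were above the RPKM threshold and 21 were tested. Among the latter, 1 was higher with an unadjusted p below 0.05, and the median was -0.03. *Slit3*, a secreted ligand of Robo receptors, was the most abundant at 108 RPKM (log2 fold change 0.18 ± 0.32, standard error), followed by the netrin receptor gene *Unc5b* at 38.0 RPKM (0.19 ± 0.10). All 21 genes for Rac exchange factors other than *Tiam1* and for their Elmo partners were tested. Among them, 0 were below an unadjusted p of 0.05, and the median was 0.07. *Farp1*, at 33.2 RPKM, and *Elmo2*, which works with Dock exchange factors, at 18.3 RPKM, were expressed more highly than *Tiam1* at 3.16 RPKM. Their log2 fold changes were 0.03 and 0.04. For Rac itself and its effectors, 22 of 22 genes were tested, with a median of -0.003 and 1 lower with an unadjusted p below 0.05. *Rac1* had 329 ± 29.8 CPM (SD, n = 4) in WT and 339 ± 26.1 CPM (SD, n = 5) in Dp1Tyb, and *Brk1*, a subunit of the WAVE complex, had 88.7 ± 6.04 and 88.1 ± 6.91 CPM. The 5 C-type lectin relatives of *Chodl* had a median of 0.02 and 0 with an unadjusted p below 0.05, and the most abundant were *Cd248*, at 124 RPKM, and *Thbd*, the thrombomodulin gene, at 41.2 RPKM.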

How the data were processed

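MEFs from 4 WT and 5 Dp1Tyb embryos were grouped by their labels. The authors trimmed reads with Trim Galore, mapped them to GRCm38 with TopHat2 2.0.12, discarded multialigning reads and deposited counts per Ensembl gene from htseq-count, which carry no normalisation. The deposited normalised counts and DESeq2 1.6.3 table (the authors' mean, fold change, Wald statistic and p-values) were not used. The annotation release of the counting is not given in the sources used here. Gene IDs were matched to GENCODE M21, with 42548 of 43629 found, and 0 columns of the table lacked a sample.

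The genotypes were compared in R 4.3.3 by the quasi-likelihood test of edgeR 4.0.16, without covariates, after TMM scaling and the package's filter on low counts, with Benjamini-Hochberg adjustment over 14567 genes. The code was tested on simulated data. Standard errors were taken from the F statistic and 95% intervals from its degrees of freedom. Single values were compared as log2(CPM + 1) with exact permutation tests, two-sided (scipy 1.17.1). Deviations between cultures used a prior count of 2. RPKM used total counts and the summed exon length of M21. Alternatives were DESeq2 1.42.0, other scalings and filters, the MEF label as covariate, a replicate block, MEF2 cultures alone, each culture left out, other pseudocounts and other thresholds. Named genes were the 7 genes, 5 other adhesion genes of the region, genes past the threshold (none) and the 2 most abundant of each related list, and the 2 most alike in pattern, beside markers and the overlapping *Btg3*. Members and lists were chosen with earlier results of these data known. Cultures of one genotype differed by at least 19.4 in chi-square per degree of freedom, so each was counted as 1 sample.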

Additional observations from a re-analysis of the deposited data

Results flagged for a closer look

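In 28 groups of cultures examined for a value that stands apart (each gene and each marker list in each genotype), 2 were found. Chance flags about 1 in 20 such groups, so this number is close to that share, and both values belong to Dp1Tyb replicate 2. For *Jam2*, Dp1Tyb replicate 2 was far from the other Dp1Tyb cultures at 45.9 CPM, with a gap to the next culture of 0.771 of the whole range, above the critical value of 0.71 for 5 cultures. The summed skeletal muscle markers of the same culture were at 256 CPM, with a gap of 0.9 of the range. Without this culture the *Jam2* log2 fold change was -0.14 in place of 0.39.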

How the results depend on the processing

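The count of genes called over the whole table was 24 and moved with the processing, to 68 with DESeq2 (48 higher, 20 lower), 1 in MEF2 cultures alone, 2 at an adjusted p below 0.01 and between 2 and 26 with one culture left out (2 without WT replicate 2 or 3, 3 without Dp1Tyb replicate 5, 8 without WT replicate 4, 9 without Dp1Tyb replicate 4, 14 or 15 without Dp1Tyb replicate 1 or 3 or WT replicate 1, and 26 without Dp1Tyb replicate 2). With no filter on low counts it was 16. Neither the 6 expressed genes nor the related genes tested were called under any of the 17 alternative fits, *Dscam* entered 2 of them without a call (its adjusted p was NA in DESeq2), and the number of expressed genes was 4 to 6 of 7. Replicate numbers were tried as a replicate block for cultures 1 to 4 of each genotype, and edgeR then called 0 genes, with 800 at an unadjusted p below 0.05. Deviations of same-numbered cultures correlated at 0.259, 0.741, 0.031 and 0.378. With Dp1Tyb replicate 5 left out, 5 of 8 cultures correlated best with their own number, a hint of pairing from the data. WT replicate 4, counted among these, correlated more with Dp1Tyb replicate 5, at 0.493. The numbers were not taken as pairs, since 1 of the 4 correlations was under 0.1 and the labels tie only the number 1 cultures, by MEF1. Under the block the log2 fold change was 0.50 for *Cxadr*, 0.39 for *Jam2*, -0.20 for *Ncam2*, 1.02 for *Eva1c*, 0.54 for *Tiam1* and 0.48 for *Chodl*, with an unadjusted p of 0.00636 for *Eva1c* (0.0715 without the block).

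With one culture left out, the region median ran from 0.56 to 0.617, the number of the 7 genes below an exact permutation p of 0.05 was 1 or 2, against 2 with all cultures, and edgeR log2 fold changes ran from -0.14 to 0.56 for *Jam2* and from -0.56 to 0.35 for *Ncam2*. The sign of single-value differences in log2 CPM turned within the ranges -0.073 (without WT replicate 2) to 1.2 for *Chodl*, -0.14 to 0.37 for *Jam2*, -0.32 to 0.18 for *Ncam2* and -0.019 to 0.052 for *Dscam*. In MEF2 cultures alone *Ncam2* turned to 0.21 in edgeR and 0.089 in single values, and *Dscam* to -0.02. Fewer cultures enter these fits, and the cause was not tested otherwise. Depth limits *Dscam* and the 5 other adhesion genes of the region.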
